A study of Mus musculus with 11 samples.

Results

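The 37 genes described here mark Kupffer cells, the resident macrophages of the liver, and the macrophages that enter the liver from the blood. They were taken as the rows of the array table annotated to one of the listed genes alone. All 37 had 1 such row, out of 30142 genes with a row of their own and 65956 rows in all. For the comparison of resident with recruited macrophages, the genes were sorted by known role into 9 resident Kupffer cell genes, 3 complement C1q genes, 8 macrophage receptors, 9 genes of general myeloid machinery and 8 recruited macrophage genes.

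The RNA came from isolated hepatocytes of 12-week-old male mice and was measured on 11 expression arrays. The double KO mice carried a liver-specific knockout of Nemo together with a Cxcr6 knockout (n = 3), the Nemo KO mice carried the liver-specific Nemo knockout with Cxcr6 intact (n = 3), the Cxcr6 KO mice lacked Cxcr6 and kept Nemo (n = 3), and the wildtype mice kept both (n = 2). Nemo, whose gene symbol is Ikbkg, is the regulatory subunit of the kinase complex that activates NF-kB, and Cxcr6 is the receptor of the chemokine Cxcl16. Double KO and Cxcr6 KO came from one mouse line, with and without Cre recombinase, and Nemo KO and wildtype from another, so an effect of Cxcr6 loss and one of the mouse line cannot be told apart. The labels do not name the promoter that drives Cre. They restrict the Nemo knockout to the liver and give no such restriction for Cxcr6.

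Kupffer cells line the sinusoids of the liver, where they take up bacteria, complement-coated particles, old red cells and modified lipoproteins from portal blood. They depend on signals through the receptor Csf1r and carry a surface set (Clec4f, Vsig4, Timd4, Marco) that in mice separates them from other macrophages. When Kupffer cells are lost or the liver is injured, monocytes that carry Ccr2 and Ly6C enter, and some of them become macrophages with high Gpnmb, Trem2, Lgals3 or Mmp12. The transcription factor PU.1 is needed for the whole myeloid lineage and binds a purine-rich core in many of its promoters.

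Values are log2 signals after the authors' normalization. Array medians lay between 5.19 and 5.38, and differences are compressed near that level. Each gene is read by its own probes, so levels are compared between arrays and not between genes. The label hepatocyte fitted the arrays: the mean of 12 hepatocyte genes lay between 18.1 and 18.5 on every array, close to the top of the scale at 19.93. The macrophage genes measured here are therefore signal in a hepatocyte preparation, and fewer macrophages and less RNA per macrophage cannot be told apart in such samples. The wildtype arrays correlated less with each other (r = 0.984) than arrays of the other groups did (0.990 to 0.995). The proliferation gene Mki67, looked up after the values were seen, had 8.53, 10.10 and 12.38 in double KO, 8.86, 8.64 and 9.44 in Nemo KO, 5.71, 5.89 and 5.46 in Cxcr6 KO, and 5.35 and 11.18 in wildtype. Wildtype replicate 2 thus stood with the Nemo-deleted arrays for this gene, and every value against wildtype is a mean over 2 arrays that disagreed in this way. The row of Ikbkg lay between 8.76 and 9.49 and that of Cxcr6 between 4.94 and 5.56, with overlapping groups. It is unknown whether either row has probes in the deleted part, and the genotypes were not checked by them.

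Of the 37 genes, 35 reached the level needed for testing, a mean of 5.27 in at least 1 group. Of these, 30 reached it in all 4 groups. Gpnmb, Laptm5 and Tyrobp reached it in double KO and Nemo KO only, Spic in double KO only and Ccr2 in Nemo KO only. Itgam and Trem2 reached it in none. Across the 35, the group mean was highest in double KO for 27 genes, in Nemo KO for 7 (Timd4, Cd14, Fcgr1, Mpeg1, Aif1, Ccr2 and Cx3cr1) and in wildtype for 1, Cd163. The lowest mean lay in Cxcr6 KO for 19 genes, in wildtype for 15 and in double KO for Cd163 alone.

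Among mice lacking Cxcr6, part of the macrophage genes were higher with Nemo knockout than without it. Between double KO and Cxcr6 KO, 10 of the 35 tested genes rose and 0 fell, by limma with Benjamini-Hochberg adjustment over the 18337 genes tested at 5%. They were Lyz2, Mrc1, C1qb, Mmp12, Ctss, Msr1, Marco, Cd68, Tyrobp and Ly6c2, with log2 fold changes between 1.13 ± 0.22 and 2.69 ± 0.45 (± SE). Over all genes, 7.41% were called in this comparison, 3.44% up and 3.96% down. Signals of 27 of the 35 genes were higher in all 3 double KO arrays than in all 3 Cxcr6 KO arrays, against 13.3% of all genes. At an unadjusted p under 0.05 the count was 28 of 35, against 29.1%. Genes that reached the level for testing only through Nemo-deleted groups add to both counts. They are Ccr2, Gpnmb, Laptm5 and Tyrobp among the 27, and Spic, Gpnmb, Laptm5 and Tyrobp among the 28. The log2 difference was above 0 for 33 of the 35, against 39.3% of all genes, and its median was 1.11, against -0.06 over all genes. The number called depended on single arrays, for members and for all genes. With every array, 1358 of 18337 genes were called. Without Cxcr6 KO replicate 1, 4 members and 529 of 18319 genes were called. Without replicate 2 it was 2 and 202 of 18385, and without replicate 3 it was 0 and 116 of 18432. Without double KO replicate 2, 3 members and 540 of 18352 genes were called, and without replicate 3, 1 and 203 of 18340. Without Nemo KO replicate 1 it was 4 and 762 of 18390. With no filter on low values it was 6 and 929 of 30142, the calls of C1qb, Cd68, Mmp12 and Tyrobp being lost.

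In mice with Cxcr6, 0 of the 35 genes passed between Nemo KO and wildtype, where 0.158% of all genes did, by the same limma test. At an unadjusted p under 0.05 the count was 3 of 35, against 24.6% of all genes. The log2 difference was above 0 for 34 of the 35, against 44.6% of all genes, with a median of 0.49 against -0.04 over all genes, although Mertk and Spic turned below 0 with arrays centred on their medians and Spic also with quantile normalization. This median was 0.57 without Nemo KO replicate 1, 0.74 without replicate 2 and 0.24 without replicate 3, and it was 0.22 without wildtype replicate 1 and 0.82 without wildtype replicate 2. The median over all genes was -0.04 with either wildtype array left out. For 12 genes all 3 Nemo KO arrays lay above both wildtype arrays, against 11.3% of all genes, and for 0 all lay below, against 24.7%. The 12 include Gpnmb and Tyrobp, which reached the level for testing only through Nemo-deleted groups. The test of the difference between both Nemo effects called 0 of 35 members and 0% of all genes, with 3 of 35 and 11.8% of all genes at an unadjusted p under 0.05. The Nemo effects with and without Cxcr6 were thus not shown to differ for any of these genes.

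**Figure D1:**
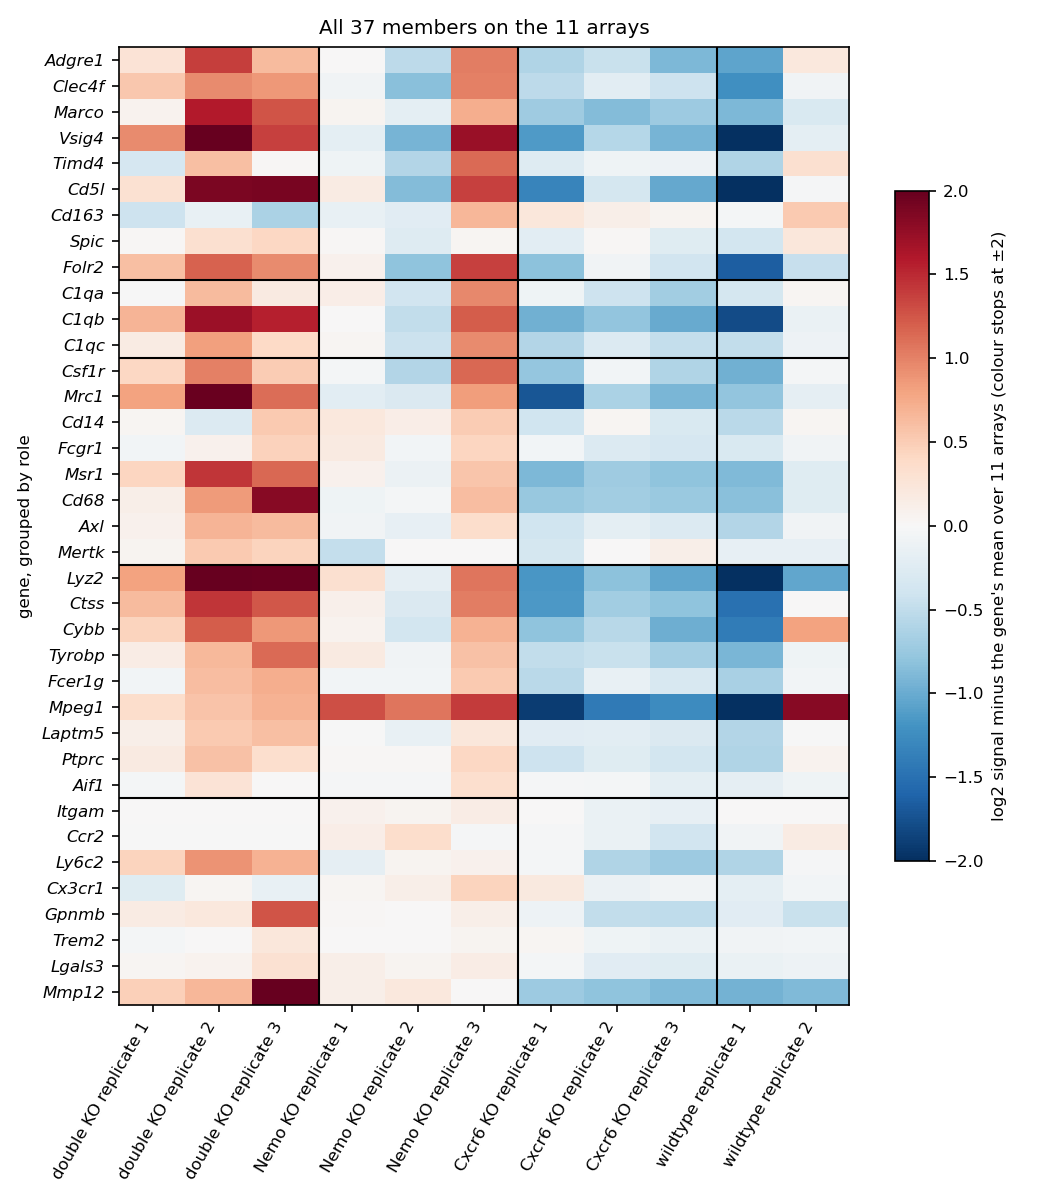
Each row is 1 of the 37 genes, grouped by role, and each column 1 array, ordered as double KO, Nemo KO, Cxcr6 KO and wildtype. Colour gives the log2 signal minus the gene's mean over the 11 arrays and stops at 2 in either direction. Most rows are red in double KO and in Nemo KO replicate 3 and blue in Cxcr6 KO and wildtype replicate 1, while Cd163 is lower in double KO than in Cxcr6 KO.

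The promoters of 6 members that the results turn on are shown. They are, within each role, the called gene with the smallest p that had an entry on a chromosome that can be printed. Cd163 was added as the 1 member lower on all double KO than on all Cxcr6 KO arrays. Sequences are RefSeq windows of build GRCm38.p6, 250 bases before to 50 after the transcription start, given 5′ to 3′ on the gene's strand. Capitals mark the PU.1 core GAGGAA or its reverse complement TTCCTC. Marco lies at chr1:120504975-120505274 (minus strand), C1qb at chr4:136886151-136886450 (minus strand), Mrc1 at chr2:14229164-14229463 (plus strand), Lyz2 at chr10:117282223-117282522 (minus strand), Ly6c2 at chr15:75111922-75112221 (minus strand) and Cd163 at chr6:124304401-124304700 (plus strand).
Marco: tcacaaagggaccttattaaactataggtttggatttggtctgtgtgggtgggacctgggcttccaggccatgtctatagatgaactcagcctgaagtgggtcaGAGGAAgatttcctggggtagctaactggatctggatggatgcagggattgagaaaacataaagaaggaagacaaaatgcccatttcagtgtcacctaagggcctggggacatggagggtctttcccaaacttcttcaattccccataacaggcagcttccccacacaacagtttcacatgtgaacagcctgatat
C1qb: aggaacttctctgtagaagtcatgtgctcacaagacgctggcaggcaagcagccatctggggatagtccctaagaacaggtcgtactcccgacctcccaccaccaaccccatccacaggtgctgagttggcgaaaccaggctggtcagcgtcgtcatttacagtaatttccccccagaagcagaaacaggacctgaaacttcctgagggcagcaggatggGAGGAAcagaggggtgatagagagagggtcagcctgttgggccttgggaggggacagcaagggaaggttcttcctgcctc
Mrc1: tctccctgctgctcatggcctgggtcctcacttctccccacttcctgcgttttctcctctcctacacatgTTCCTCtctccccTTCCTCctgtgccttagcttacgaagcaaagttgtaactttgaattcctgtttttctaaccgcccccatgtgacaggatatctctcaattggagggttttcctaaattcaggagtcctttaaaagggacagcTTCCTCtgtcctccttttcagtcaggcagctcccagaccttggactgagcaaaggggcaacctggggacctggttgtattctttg
Lyz2: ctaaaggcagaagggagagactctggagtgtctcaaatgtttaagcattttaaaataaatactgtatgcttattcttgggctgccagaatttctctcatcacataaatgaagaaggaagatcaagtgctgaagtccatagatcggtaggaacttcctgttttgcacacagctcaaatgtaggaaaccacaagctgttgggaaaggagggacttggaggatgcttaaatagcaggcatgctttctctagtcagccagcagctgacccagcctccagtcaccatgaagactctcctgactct
Ly6c2: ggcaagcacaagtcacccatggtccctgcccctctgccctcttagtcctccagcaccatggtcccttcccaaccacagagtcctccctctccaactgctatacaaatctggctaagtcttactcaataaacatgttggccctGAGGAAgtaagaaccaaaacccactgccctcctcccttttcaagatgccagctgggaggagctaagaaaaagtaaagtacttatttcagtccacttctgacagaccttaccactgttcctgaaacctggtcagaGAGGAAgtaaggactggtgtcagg
Cd163: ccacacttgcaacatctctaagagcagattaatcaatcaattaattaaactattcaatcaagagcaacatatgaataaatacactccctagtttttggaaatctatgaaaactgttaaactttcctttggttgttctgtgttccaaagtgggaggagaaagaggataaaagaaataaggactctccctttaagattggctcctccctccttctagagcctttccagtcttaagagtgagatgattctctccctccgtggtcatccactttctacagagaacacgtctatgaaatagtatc

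The core stood once in the Marco window, at -146 from the start, and once in that of C1qb, at -30. The Mrc1 window held 3 on the reverse strand, at -180, -167 and -35, and the Ly6c2 window held 2. The windows of Lyz2 and Cd163 held none. Over the 31 members with an entry, 18 windows had at least 1 core on either strand (58.1%), against 7652 of 27025 windows of all genes (28.3%), taking the first window of each gene. The share was 3 of 8 for resident Kupffer cell genes, 2 of 2 for C1q, 4 of 5 for receptors, 5 of 8 for myeloid machinery and 4 of 8 for recruited macrophage genes. A match describes these letters only, and its absence says nothing on whether PU.1 binds.

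The resident Kupffer cell genes were higher in double KO than in Cxcr6 KO for 8 of 9, and 1 of them passed the test. Marco, a scavenger receptor for bacteria and particles, had log2 signals of 7.33, 8.85 and 8.52 in double KO, 7.32, 7.07 and 7.98 in Nemo KO, 6.55, 6.39 and 6.53 in Cxcr6 KO, and 6.36 and 6.96 in wildtype. All 3 double KO arrays and all 3 Nemo KO arrays lay above Cxcr6 KO and wildtype. It rose by 1.74 ± 0.38 on the log2 scale in double KO against Cxcr6 KO (3.35-fold, adjusted p = 0.0312, limma), and the difference between Nemo KO and wildtype was 0.80 ± 0.42 (adjusted p = 0.284).

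Vsig4, the complement receptor with which Kupffer cells catch opsonised bacteria, had 9.93, 11.08 and 10.36 in double KO, 8.79, 8.06 and 10.71 in Nemo KO, 7.86, 8.41 and 8.07 in Cxcr6 KO, and 6.81 and 8.79 in wildtype. Double KO lay above Cxcr6 KO on every array, and Nemo KO overlapped with both double KO and wildtype. The log2 difference between double KO and Cxcr6 KO was 2.35 ± 0.69 (adjusted p = 0.0676), close in size to that of Mrc1 but with a larger error. Cd5l, a secreted scavenger protein made by tissue macrophages, had 8.50, 10.08 and 10.08 in double KO, 8.36, 7.32 and 9.55 in Nemo KO, 6.87, 7.84 and 7.16 in Cxcr6 KO, and 6.16 and 8.17 in wildtype. Its groups were ordered in the same way, with a log2 difference of 2.26 ± 0.70 (adjusted p = 0.0762) between double KO and Cxcr6 KO and 1.24 ± 0.78 (adjusted p = 0.367) between Nemo KO and wildtype.

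Clec4f, a lectin that in mice is close to exclusive to Kupffer cells, had 8.44, 8.85 and 8.76 in double KO, 7.83, 7.07 and 8.92 in Nemo KO, 7.38, 7.70 and 7.50 in Cxcr6 KO, and 6.69 and 7.83 in wildtype. Nemo KO replicate 3 was the highest of all 11 arrays and Nemo KO replicate 2 stood below all Cxcr6 KO arrays. The difference between double KO and Cxcr6 KO was 1.16 ± 0.43 (95% interval 0.18 to 2.14, adjusted p = 0.118). Adgre1, the adhesion receptor long used to stain mouse macrophages, had 7.38, 8.49 and 7.74 in double KO, 7.11, 6.58 and 8.12 in Nemo KO, 6.50, 6.65 and 6.20 in Cxcr6 KO, and 6.05 and 7.32 in wildtype. The 3 double KO arrays were above the 3 Cxcr6 KO arrays, with a log2 difference of 1.42 ± 0.45 (adjusted p = 0.0821), and Nemo KO and wildtype overlapped.

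Folr2, a folate receptor of resident macrophages, had 7.95, 8.53 and 8.30 in double KO, 7.43, 6.55 and 8.72 in Nemo KO, 6.53, 7.28 and 6.97 in Cxcr6 KO, and 5.71 and 6.89 in wildtype. Its differences were 1.33 ± 0.51 for double KO against Cxcr6 KO and 1.27 ± 0.57 for Nemo KO against wildtype, with adjusted p of 0.126 and 0.210. The difference between Nemo KO and wildtype was 0.68 without wildtype replicate 1 and 1.86 without wildtype replicate 2. Timd4, the phosphatidylserine receptor that marks long-lived embryo-derived Kupffer cells, had 5.93, 6.88 and 6.29 in double KO, 6.18, 5.68 and 7.41 in Nemo KO, 6.01, 6.18 and 6.18 in Cxcr6 KO, and 5.67 and 6.59 in wildtype. These groups overlapped in every comparison, and the difference between double KO and Cxcr6 KO was 0.24 ± 0.43 (95% interval -0.73 to 1.21, adjusted p = 0.745). Spic, a transcription factor of macrophages that recycle haem iron, lay close to the array medians, between 4.66 and 5.44.

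Cd163, the haemoglobin scavenger receptor, was the exception among resident genes. It had 5.63, 5.89 and 5.41 in double KO, 5.89, 5.81 and 6.71 in Nemo KO, 6.27, 6.16 and 6.09 in Cxcr6 KO, and 5.997 and 6.57 in wildtype. All 3 double KO arrays were lower than all 3 Cxcr6 KO arrays, a pattern that 24.4% of all genes shared. The log2 difference was -0.53 ± 0.25 (95% interval -1.09 to 0.03) and did not pass (adjusted p = 0.194).

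The C1q genes encode the chains of the first complement component, which macrophages make in the liver. C1qb had 8.75, 9.79 and 9.64 in double KO, 8.09, 7.59 and 9.29 in Nemo KO, 7.13, 7.29 and 7.07 in Cxcr6 KO, and 6.28 and 7.94 in wildtype. Double KO was above Cxcr6 KO throughout, and C1qb rose by 2.23 ± 0.51 (4.70-fold, adjusted p = 0.0364). C1qc had 7.13, 7.79 and 7.37 in double KO, 7.01, 6.53 and 7.91 in Nemo KO, 6.37, 6.70 and 6.48 in Cxcr6 KO, and 6.47 and 6.87 in wildtype, and C1qa had 6.66, 7.32 and 6.85 in double KO, 6.81, 6.30 and 7.64 in Nemo KO, 6.59, 6.26 and 5.98 in Cxcr6 KO, and 6.33 and 6.72 in wildtype. Both were higher on every double KO than Cxcr6 KO array without passing, with differences of 0.91 ± 0.32 (adjusted p = 0.102) and 0.67 ± 0.32 (adjusted p = 0.207). The highest values of C1qa and C1qc stood in Nemo KO replicate 3.

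**Figure D2:**
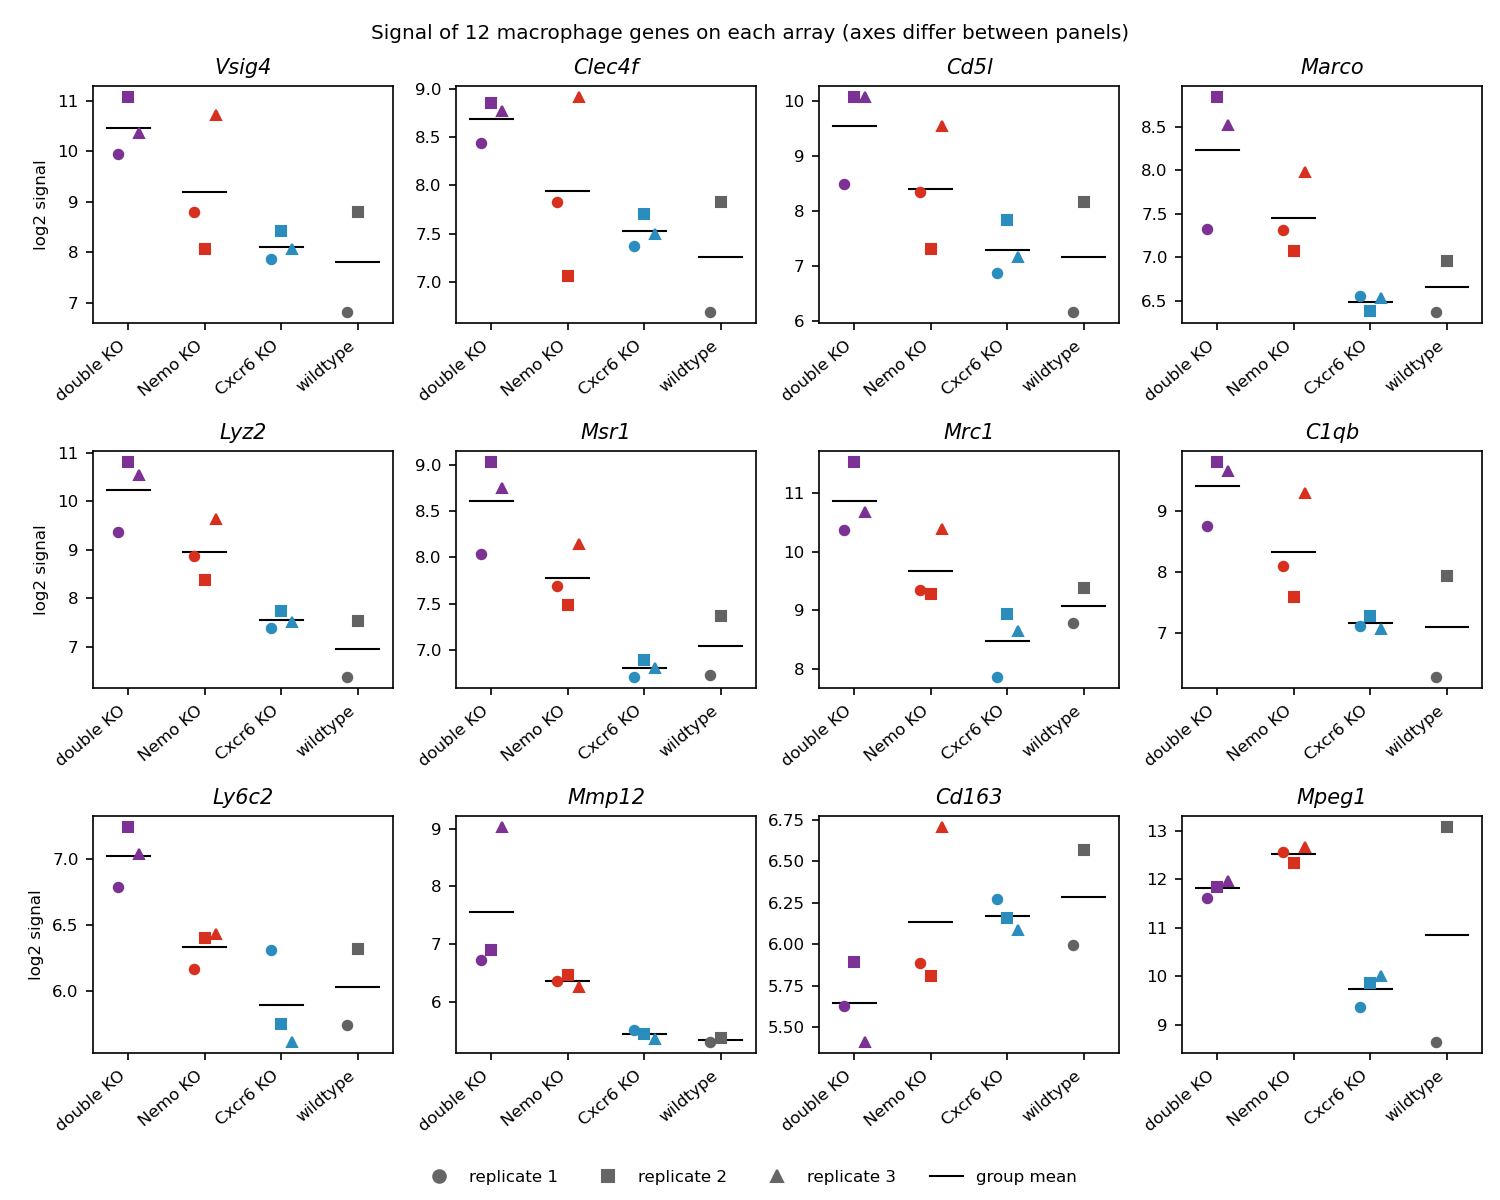
Points are the log2 signals of 12 genes on each array, with a panel per gene and the groups from left to right as double KO, Nemo KO, Cxcr6 KO and wildtype; the vertical axes differ between panels. Marco, Lyz2 and Msr1 lie higher in double KO than in Cxcr6 KO on every array.

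Of the 8 macrophage receptors, Mrc1, Msr1 and Cd68 rose in double KO against Cxcr6 KO. Msr1, the class A scavenger receptor for modified lipoproteins, had 8.04, 9.04 and 8.76 in double KO, 7.69, 7.48 and 8.15 in Nemo KO, 6.70, 6.89 and 6.80 in Cxcr6 KO, and 6.72 and 7.36 in wildtype. It rose by 1.82 ± 0.28 (3.52-fold, adjusted p = 0.0129), the smallest p among the members. All Nemo KO arrays were also above both wildtype arrays, with a difference of 0.73 ± 0.31 that did not pass (adjusted p = 0.182). Mrc1, the mannose receptor, had 10.37, 11.53 and 10.67 in double KO, 9.34, 9.28 and 10.39 in Nemo KO, 7.85, 8.94 and 8.65 in Cxcr6 KO, and 8.78 and 9.37 in wildtype. It rose by 2.38 ± 0.42 (5.20-fold, adjusted p = 0.0177). Mrc1 is also a gene of liver sinusoidal endothelial cells, whose markers rose in the same comparison as given further on.

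Cd68, a lysosomal membrane protein of phagocytes, had 7.60, 8.33 and 9.30 in double KO, 7.39, 7.44 and 8.10 in Nemo KO, 6.72, 6.79 and 6.73 in Cxcr6 KO, and 6.65 and 7.23 in wildtype. The Cxcr6 KO arrays lay close together and double KO replicate 3 stood highest, and the gene rose by 1.66 ± 0.38 (3.17-fold, adjusted p = 0.0360). Csf1r, the receptor of the macrophage growth factors CSF1 and IL34, had 7.73, 8.32 and 7.82 in double KO, 7.27, 6.73 and 8.46 in Nemo KO, 6.54, 7.27 and 6.72 in Cxcr6 KO, and 6.35 and 7.27 in wildtype. Double KO was higher than Cxcr6 KO on every array, with a difference of 1.11 ± 0.43 (adjusted p = 0.127), and Nemo KO replicate 3 was highest of all. Axl, a receptor kinase for the uptake of dying cells, had 6.57, 7.17 and 7.12 in double KO, 6.41, 6.32 and 6.83 in Nemo KO, 6.09, 6.29 and 6.21 in Cxcr6 KO, and 5.90 and 6.41 in wildtype. Its difference between double KO and Cxcr6 KO was 0.75 ± 0.20 (adjusted p = 0.0554).

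Mertk, a kinase of the same family, had 8.70, 9.18 and 9.10 in double KO, 8.17, 8.66 and 8.66 in Nemo KO, 8.30, 8.66 and 8.77 in Cxcr6 KO, and 8.49 and 8.49 in wildtype. It was higher on all double KO arrays than on all Nemo KO arrays (0.50 ± 0.18, adjusted p = 0.230) and overlapped between double KO and Cxcr6 KO. Cd14, the lipopolysaccharide co-receptor, had 6.42, 6.10 and 6.91 in double KO, 6.59, 6.50 and 6.89 in Nemo KO, 5.98, 6.42 and 6.07 in Cxcr6 KO, and 5.84 and 6.42 in wildtype. Fcgr1, the high-affinity receptor for IgG, had 5.65, 5.79 and 6.16 in double KO, 5.88, 5.64 and 6.14 in Nemo KO, 5.65, 5.42 and 5.36 in Cxcr6 KO, and 5.41 and 5.64 in wildtype. For both, all Nemo KO arrays were above both wildtype arrays, for Fcgr1 by a small margin, with differences of 0.53 ± 0.26 (adjusted p = 0.240) and 0.36 ± 0.19 (adjusted p = 0.268), while double KO and Cxcr6 KO overlapped.

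Of the 9 genes of myeloid machinery, Lyz2 and Ctss rose in double KO against Cxcr6 KO, as did Tyrobp with the filter on low values. Lyz2, the lysozyme of macrophages and neutrophils, had 9.36, 10.81 and 10.54 in double KO, 8.87, 8.38 and 9.63 in Nemo KO, 7.39, 7.74 and 7.51 in Cxcr6 KO, and 6.37 and 7.53 in wildtype. It showed the widest gap of all members, 2.69 ± 0.45 (6.43-fold, adjusted p = 0.0160), and also the widest one between Nemo KO and wildtype, 2.01 ± 0.50 (4.04-fold, adjusted p = 0.0764). With arrays centred on their medians, Lyz2 passed between Nemo KO and wildtype (adjusted p = 0.0499, limma). In that setting 1319 of 18280 genes passed, against 29 of 18337 as deposited. Probes of the near-identical Lyz1 can share its signal, and the Lyz1 row, looked up after the values were seen, ran from 7.78 to 9.003 in double KO and from 6.38 to 6.77 in Cxcr6 KO.

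Ctss, the lysosomal protease cathepsin S of antigen-presenting cells, had 8.72, 9.52 and 9.32 in double KO, 8.18, 7.79 and 9.09 in Nemo KO, 6.93, 7.38 and 7.27 in Cxcr6 KO, and 6.58 and 8.09 in wildtype. It rose by 1.99 ± 0.43 (3.97-fold, adjusted p = 0.0307). Tyrobp, the signalling adaptor of Trem2 and other myeloid receptors, had 5.45, 5.95 and 6.43 in double KO, 5.48, 5.23 and 5.88 in Nemo KO, 4.80, 4.85 and 4.62 in Cxcr6 KO, and 4.39 and 5.22 in wildtype. It rose by 1.18 ± 0.29 (adjusted p = 0.0419), but it reached the level for testing in double KO and Nemo KO only, and the call was lost when no filter was set. Nemo KO was above wildtype on every array as well (0.73 ± 0.32, adjusted p = 0.201).

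Cybb, the catalytic subunit of the phagocyte oxidase, had 8.14, 8.91 and 8.56 in double KO, 7.76, 7.33 and 8.40 in Nemo KO, 6.89, 7.14 and 6.72 in Cxcr6 KO, and 6.29 and 8.50 in wildtype. Wildtype replicate 2 stood with the double KO arrays, and the difference between double KO and Cxcr6 KO was 1.62 ± 0.50 (adjusted p = 0.0754). Mpeg1, a pore-forming protein of macrophages, had 11.62, 11.85 and 11.97 in double KO, 12.56, 12.33 and 12.67 in Nemo KO, 9.37, 9.85 and 10.01 in Cxcr6 KO, and 8.64 and 13.08 in wildtype. Its wildtype arrays differed by more than 4 log2 units, and Nemo KO lay above double KO on every array. The difference between double KO and Cxcr6 KO was 2.07 ± 0.87 (adjusted p = 0.152) with both wildtype arrays in the fit. Between Nemo KO and wildtype the difference was 3.89 without wildtype replicate 2 and -0.56 without wildtype replicate 1. Between Cxcr6 KO and wildtype it was 1.11 without wildtype replicate 2 and -3.34 without wildtype replicate 1.

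Ptprc, the CD45 phosphatase of all white blood cells, had 6.34, 6.76 and 6.50 in double KO, 6.19, 6.19 and 6.58 in Nemo KO, 5.75, 5.94 and 5.81 in Cxcr6 KO, and 5.57 and 6.24 in wildtype. Laptm5, a lysosomal protein of blood cells, had 5.63, 6.03 and 6.12 in double KO, 5.51, 5.36 and 5.74 in Nemo KO, 5.29, 5.31 and 5.22 in Cxcr6 KO, and 4.92 and 5.51 in wildtype. Both were higher on every double KO than Cxcr6 KO array and missed the threshold, with differences of 0.70 ± 0.19 (adjusted p = 0.0530) and 0.66 ± 0.18 (adjusted p = 0.0551). Laptm5 reached the level for testing in double KO and Nemo KO only. Fcer1g, the signalling chain of Fc receptors, had 6.51, 7.18 and 7.29 in double KO, 6.50, 6.50 and 7.08 in Nemo KO, 6.02, 6.41 and 6.23 in Cxcr6 KO, and 5.91 and 6.50 in wildtype, with a difference of 0.77 ± 0.25 (adjusted p = 0.0882). Aif1, a calcium-binding protein used to stain macrophages, had 5.64, 5.95 and 5.68 in double KO, 5.64, 5.64 and 6.01 in Nemo KO, 5.64, 5.63 and 5.48 in Cxcr6 KO, and 5.50 and 5.59 in wildtype. All Nemo KO arrays were above both wildtype arrays by little (0.22 ± 0.14, adjusted p = 0.370), and double KO and Cxcr6 KO overlapped.

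Of the 8 recruited macrophage genes, Ly6c2 and Mmp12 rose in double KO against Cxcr6 KO. Ly6c2, the Ly6C antigen of inflammatory monocytes, had 6.79, 7.24 and 7.04 in double KO, 6.17, 6.40 and 6.43 in Nemo KO, 6.31, 5.75 and 5.61 in Cxcr6 KO, and 5.74 and 6.32 in wildtype. The double KO arrays were above all 8 others, and the gene rose by 1.13 ± 0.22 (2.19-fold, adjusted p = 0.0222). Against Nemo KO its difference was 0.69 ± 0.22 (adjusted p = 0.177), and between Nemo KO and wildtype it was 0.31 ± 0.24 with overlapping arrays. The row of its near-identical neighbour Ly6c1, looked up after the values were seen, ran from 6.35 to 6.56 in double KO and from 5.88 to 6.04 in Cxcr6 KO, and probes of the pair can share signal.

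Mmp12, the macrophage elastase, had 6.72, 6.90 and 9.03 in double KO, 6.36, 6.46 and 6.25 in Nemo KO, 5.51, 5.43 and 5.36 in Cxcr6 KO, and 5.29 and 5.36 in wildtype. The 5 arrays of Cxcr6 KO and wildtype lay within 0.22 log2 units of each other and all double KO and Nemo KO arrays lay above them. It rose by 2.12 ± 0.50 (4.34-fold, adjusted p = 0.0382), with double KO replicate 3 more than 2 log2 units above the other double KO arrays. Without that array the log2 difference was 1.38 and its adjusted p 0.00412, and Mmp12 also passed between Nemo KO and wildtype (adjusted p = 0.0359).

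Gpnmb, a glycoprotein of lipid-laden and scar-associated macrophages, had 5.72, 5.75 and 6.80 in double KO, 5.57, 5.55 and 5.66 in Nemo KO, 5.44, 5.06 and 5.04 in Cxcr6 KO, and 5.32 and 5.09 in wildtype. It reached the level for testing in double KO and Nemo KO only. Both Nemo-deleted groups were above their controls on every array, with differences of 0.91 ± 0.26 (adjusted p = 0.0629) in double KO against Cxcr6 KO and 0.39 ± 0.29 (adjusted p = 0.458) in Nemo KO against wildtype. Without double KO replicate 3 the difference between double KO and Cxcr6 KO was 0.56. Lgals3, the lectin galectin-3, had 6.44, 6.48 and 6.72 in double KO, 6.53, 6.46 and 6.55 in Nemo KO, 6.37, 6.18 and 6.17 in Cxcr6 KO, and 6.27 and 6.31 in wildtype. It had the same order with smaller differences, 0.31 ± 0.10 (adjusted p = 0.0766) and 0.22 ± 0.11 (adjusted p = 0.233).

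Ccr2, the chemokine receptor by which monocytes leave the bone marrow, had 5.17, 5.17 and 5.17 in double KO, 5.30, 5.52 and 5.16 in Nemo KO, 5.15, 5.04 and 4.80 in Cxcr6 KO, and 5.10 and 5.33 in wildtype. These signals were near the array medians in every group. Cx3cr1, the fractalkine receptor of patrolling monocytes, had 6.23, 6.50 and 6.32 in double KO, 6.51, 6.59 and 6.91 in Nemo KO, 6.66, 6.34 and 6.40 in Cxcr6 KO, and 6.27 and 6.41 in wildtype. It was lower on all double KO arrays than on all Nemo KO arrays (-0.32 ± 0.13, adjusted p = 0.273), and double KO and Cxcr6 KO overlapped. Itgam, the CD11b integrin chain, lay between 4.76 and 5.06, and Trem2, a lipid-sensing receptor, between 4.95 and 5.30, both under the level for testing.

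**Figure D3:**
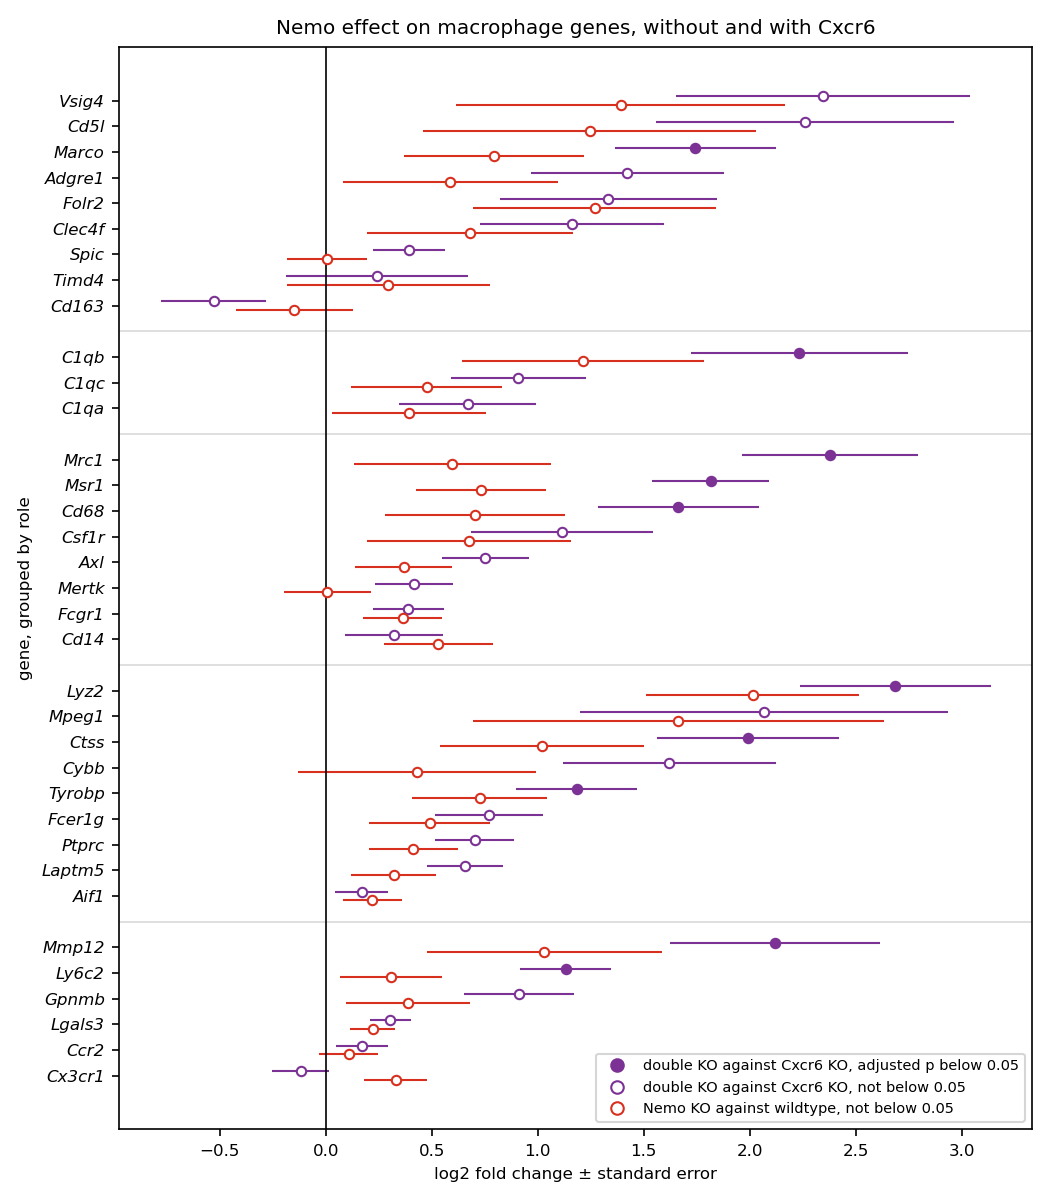
Points are log2 fold changes with standard errors of the 35 tested genes, grouped by role, for double KO against Cxcr6 KO (upper point of each pair) and Nemo KO against wildtype (lower point); filled points passed at an adjusted p below 0.05. The 10 filled points all belong to double KO against Cxcr6 KO, and Lyz2 is the highest in both comparisons.

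Resident and recruited genes were then set side by side by their mean log2 signal per array. The mean of the 9 resident genes was 7.35, 8.22 and 7.88 in double KO, 7.11, 6.54 and 8.13 in Nemo KO, 6.53, 6.85 and 6.61 in Cxcr6 KO, and 6.01 and 7.15 in wildtype. The mean of the 8 recruited genes was 5.88, 6.01 and 6.41 in double KO, 5.82, 5.88 and 5.89 in Nemo KO, 5.69, 5.45 and 5.39 in Cxcr6 KO, and 5.49 and 5.60 in wildtype. Double KO and Cxcr6 KO did not overlap for either set, with differences of 1.15 for the resident and 0.592 for the recruited genes. Nemo KO and wildtype overlapped for the resident genes (difference 0.680) and did not for the recruited genes (difference 0.320). The smaller differences of the recruited set stand beside signals near the array medians, so the 2 sets' sizes are not a measure of how many cells of each kind were present.

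The spread inside the groups was wider for the resident than for the recruited genes in Nemo KO, double KO and wildtype, and similar in Cxcr6 KO. In Nemo KO the median range over the 3 arrays was 1.73 for the resident genes, widest for Vsig4 (2.65), and 0.234 for the recruited genes. The median ranges for resident and recruited genes were 0.944 and 0.366 in double KO and, over 2 arrays, 1.14 and 0.180 in wildtype. In Cxcr6 KO the median ranges were 0.326 for the resident and 0.337 for the recruited genes. The recruited genes lay nearer the array medians, where differences are compressed, so a small range there is not a measure of steadier expression. Replicate 3 was the highest Nemo KO array for 9 of 9 resident genes and replicate 2 the lowest for 9 of 9. For the recruited genes tested, replicate 3 was highest in 4 of 6. In wildtype, replicate 2 was above replicate 1 for 9 of 9 resident genes and for 34 of the 35 members tested. In double KO, replicate 1 was the lowest array for 32 of the 35.

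**Figure D4:**
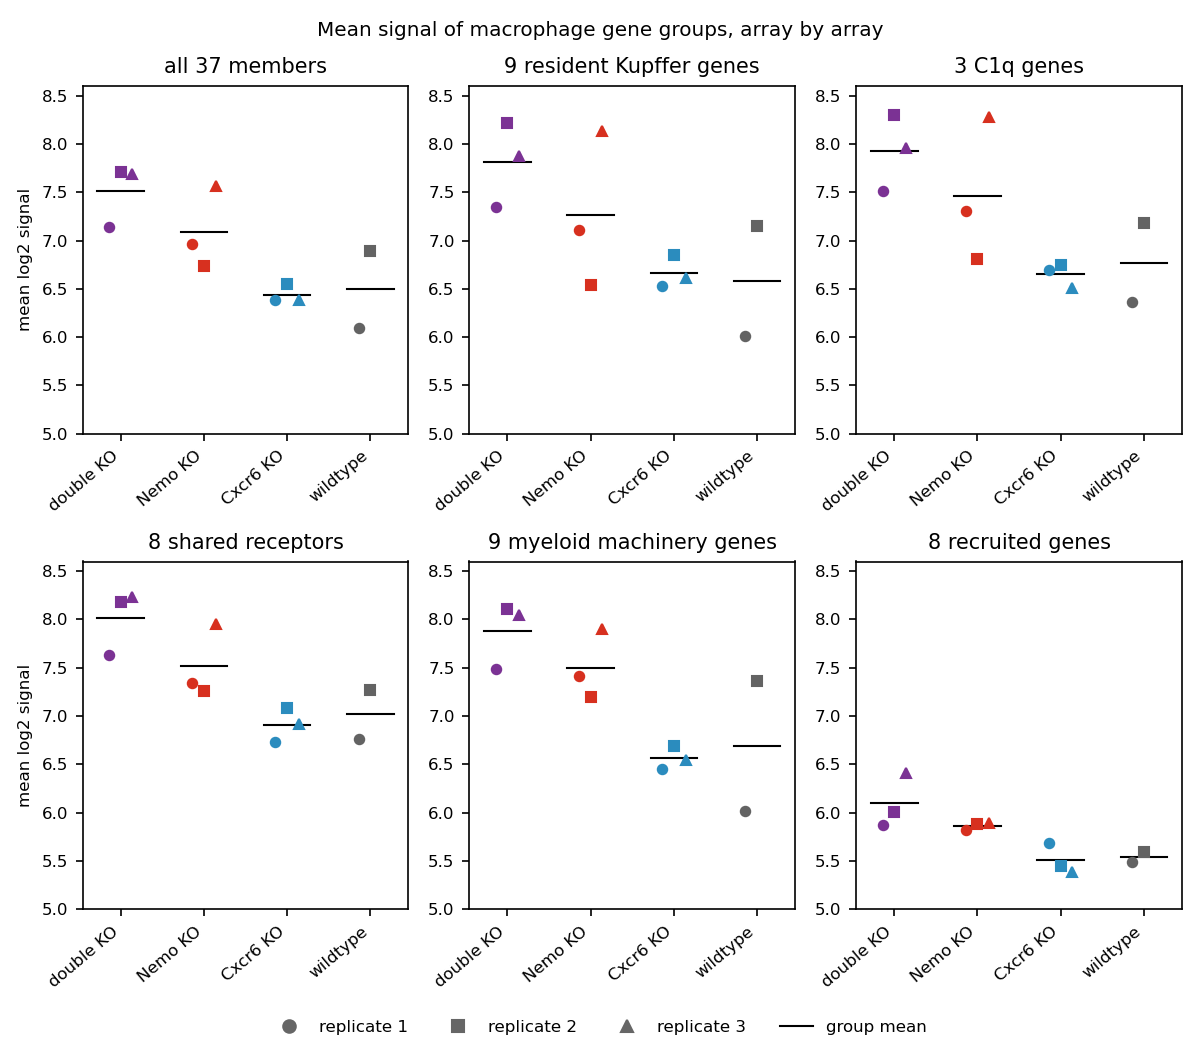
Points are the mean log2 signal per array of the genes of each role, with the groups from left to right as double KO, Nemo KO, Cxcr6 KO and wildtype. The resident genes run from 6.54 to 8.13 within Nemo KO, whereas the recruited genes stay between 5.82 and 5.89 there. In wildtype the resident genes run from 6.01 to 7.15 and the recruited genes from 5.49 to 5.60.

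Double KO was compared with Nemo KO, a contrast of Cxcr6 status and line in Nemo-deleted livers. Of the 35 genes, 27 had a higher mean in double KO and 8 a lower one, where 56.9% of all genes were higher. Aif1, Fcgr1 and Timd4 turned sign when arrays were centred on their medians, and Aif1 and Fcgr1 with quantile normalization. None passed (0 by limma, 7 at an unadjusted p under 0.05), where 0.594% of all genes passed and 16.8% had such an unadjusted p. Those 7 were Ly6c2, Msr1, Mrc1, Lyz2, Mertk, Cx3cr1 and Mmp12. Lyz2 had a difference of 1.28 ± 0.45 (adjusted p = 0.217), Mrc1 of 1.19 ± 0.42 (adjusted p = 0.216) and Mmp12 of 1.19 ± 0.50 (adjusted p = 0.274). Ly6c2, Mertk, Mmp12 and Gpnmb were higher on every double KO than Nemo KO array, against 12.9% of all genes, and Cx3cr1 and Mpeg1 were lower on every one, against 9.94%. The median difference was 0.47 over the 35, against 0.04 over all genes, and it was 0.28 without Nemo KO replicate 2. Mmp12 had 0.45 without double KO replicate 3. Centring the arrays moved the median of all genes to 0.16 in this comparison.

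Cxcr6 KO was also compared with wildtype, where Nemo was intact. The difference was above 0 for 15 genes and below 0 for 20, none passed (0 by limma and 0 at an unadjusted p under 0.05), and no gene separated the arrays. Over all genes 51.8% had a difference above 0, 0.256% passed and 11.1% had an unadjusted p under 0.05. Of all genes, 12.7% and 11.2% lay above or below on all arrays. The differences ran from -1.12 to 0.63, with a median of -0.05. That median rested on which wildtype array was used: it was -0.40 without replicate 1 and 0.26 without replicate 2.

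In the test of the difference between both Nemo effects, the smallest unadjusted p belonged to Mrc1, at 1.78 ± 0.62 on the log2 scale (95% interval 0.37 to 3.19, adjusted p = 0.341). Msr1 had 1.08 ± 0.41 (adjusted p = 0.368) and Ly6c2 0.83 ± 0.32 (adjusted p = 0.372). All were larger in the line without Cxcr6, and none passed. The value of Mpeg1 was 2.63 without wildtype replicate 1 and -1.82 without wildtype replicate 2.

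Further macrophage genes were counted for double KO against Cxcr6 KO. Over all genes, 3.44% rose, 3.96% fell and 39.3% had a difference above 0 in this comparison, for these lists and the following ones. Of 19 tested Fc and pattern recognition receptors, 6 rose and 0 fell, with a median of 0.67. Clec7a, the fungal glucan receptor, averaged 8.38 ± 0.92 in double KO and 5.80 ± 0.26 in Cxcr6 KO (SD, n = 3 each), a rise of 2.58 ± 0.42 (adjusted p = 0.0150). Tlr2, the receptor for bacterial lipoproteins, rose by 1.09 ± 0.17 (adjusted p = 0.0146). Fcgr2b, the inhibitory IgG receptor, rose by 2.44 ± 0.31 (adjusted p = 0.00856), and it is made by sinusoidal endothelial cells as well. Lilrb4a, Fcgr3 and Sirpa rose too. Between Nemo KO and wildtype 0 of the 19 passed by limma, against 0.158% of all genes. At an unadjusted p under 0.05 the count was 2, against 24.6% of all genes. All 19 differences were above 0 in both comparisons, where 44.6% of all genes were above 0 for Nemo KO against wildtype.

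Of 17 lysosome and lipid genes tested, 5 rose and 0 fell. Cd9, a tetraspanin of scar-associated macrophages, averaged 10.02 ± 0.16 in double KO and 8.19 ± 0.25 in Cxcr6 KO (SD, n = 3 each) and rose by 1.83 ± 0.36 (adjusted p = 0.0238). The lysosomal protease genes Lgmn and Ctsb rose by 1.73 ± 0.35 (adjusted p = 0.0240) and 0.78 ± 0.19 (adjusted p = 0.0427), and the lysosomal membrane gene Cd63 by 1.42 ± 0.33 (adjusted p = 0.0381). Lipa, the lysosomal acid lipase, had signals above 15.9 on every array and rose by 0.67 ± 0.15 (adjusted p = 0.0367).

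Growth factors and chemokines had 2 of 12 tested genes up and 0 down. Cxcl16, the ligand of Cxcr6, averaged 6.54 ± 0.17 in double KO and 5.75 ± 0.09 in Cxcr6 KO and rose by 0.78 ± 0.17 (adjusted p = 0.0300), and the chemokine gene Ccl6 rose by 0.72 ± 0.16 (adjusted p = 0.0342). Of 11 transcription factors tested, 7 lay higher and 4 lower (median 0.06), 2 rose and 0 fell. Maf rose by 0.96 ± 0.19 (adjusted p = 0.0230) and Tfec by 0.88 ± 0.17 (adjusted p = 0.0237), both factors of the macrophage lineage. Bach1, a repressor of haem-regulated genes, and Rxra, a nuclear receptor, were lower on every double KO than Cxcr6 KO array without passing, at -0.66 ± 0.17 (adjusted p = 0.0513) and -0.49 ± 0.15 (adjusted p = 0.0734). Such separation was found for 2 of the 11 factors, against 24.4% of all genes. Further Kupffer cell genes were divided: of 11 tested, 6 lay higher and 5 lower in double KO than in Cxcr6 KO (median 0.22), 1 rose and 0 fell. Clec1b, a lectin of Kupffer cells and platelets, rose by 1.12 ± 0.27 (adjusted p = 0.0418). The prostaglandin-degrading enzyme gene Hpgd had the lowest difference, -1.28 ± 0.33 (adjusted p = 0.0509), with all double KO arrays below all Cxcr6 KO arrays. This pattern held for 2 of the 11 Kupffer cell genes, against 24.4% of all genes. Of 9 effector genes tested, the cytokine gene Il1a rose by 1.62 ± 0.36 (adjusted p = 0.0336).

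Markers of other non-parenchymal cells moved as well. In double KO against Cxcr6 KO, 17 of 19 endothelial markers rose, with a median of 1.46. So did 8 of 11 stellate cell and fibroblast markers and 4 of 6 cholangiocyte markers, against 3.44% of all genes. The mean of the endothelial markers lay between 7.81 and 8.62 on the double KO arrays, 7.13 and 7.55 on the Nemo KO arrays, 6.27 and 6.87 on the Cxcr6 KO arrays, and 6.79 and 6.85 on the wildtype arrays. The mean of the stellate markers lay between 6.17 and 6.94 in double KO, 6.08 and 6.19 in Nemo KO, 5.53 and 5.62 in Cxcr6 KO, and 5.64 and 5.91 in wildtype. The group means of both sets were thus highest in double KO, like that of the macrophage genes. Double KO and Nemo KO arrays were apart for the endothelial markers and overlapped for the stellate markers. They also overlapped for the 37 macrophage genes (7.14 to 7.71 against 6.73 to 7.57). The endothelial gene Pecam1 averaged 7.63 ± 0.27 in double KO and 6.31 ± 0.17 in Cxcr6 KO, and Dcn, the decorin of fibroblasts and stellate cells, averaged 10.80 ± 0.82 in double KO and 7.10 ± 0.56 in Cxcr6 KO (SD, n = 3 each). Their part in the macrophage result was not tested. The hepatocyte genes, close to the top of the scale, had a mean difference of -0.150 between double KO and Cxcr6 KO. By limma 0 of 12 were called, and 2 of 12 had an unadjusted p under 0.05, against 29.1% of all genes. Their means did not overlap between Cxcr6 KO (18.324 to 18.483) and wildtype (18.155 to 18.317).

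Markers of most other blood cells lay close to the array medians. The mean of the T cell markers lay between 4.99 and 5.18 over all 11 arrays, that of B cell markers between 4.91 and 5.21, that of neutrophil markers between 4.99 and 5.17, and that of NK and NKT cell markers between 5.09 and 5.64. Dendritic cell markers lay between 5.26 and 5.49. None of the 3 T cell genes tested passed in double KO against Cxcr6 KO (0 by limma). At an unadjusted p under 0.05 the count was 2, against 29.1% of all genes. Of the 3, Themis had 1.49 ± 0.42 (adjusted p = 0.0608) and Cd3d -0.36 ± 0.16 (adjusted p = 0.167). The mean of the erythroid markers was higher, between 5.96 and 6.62, and their 1 tested gene, Alas2, the haem synthesis enzyme of red cell precursors, fell. Its mean signal was 10.18 ± 0.34 for double KO, 11.72 ± 0.54 for Nemo KO, 11.78 ± 0.17 for Cxcr6 KO (SD, n = 3 each) and 11.42 ± 0.30 for wildtype (SD, n = 2), and it fell by 1.60 ± 0.27 in double KO against Cxcr6 KO (adjusted p = 0.0163) and by 1.54 ± 0.27 against Nemo KO (adjusted p = 0.0487). The neutrophil gene S100a8, which bears on Lyz2 because neutrophils make lysozyme too, lay between 4.12 and 4.42 in double KO and between 4.03 and 4.24 in Cxcr6 KO.

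**Figure D5:**
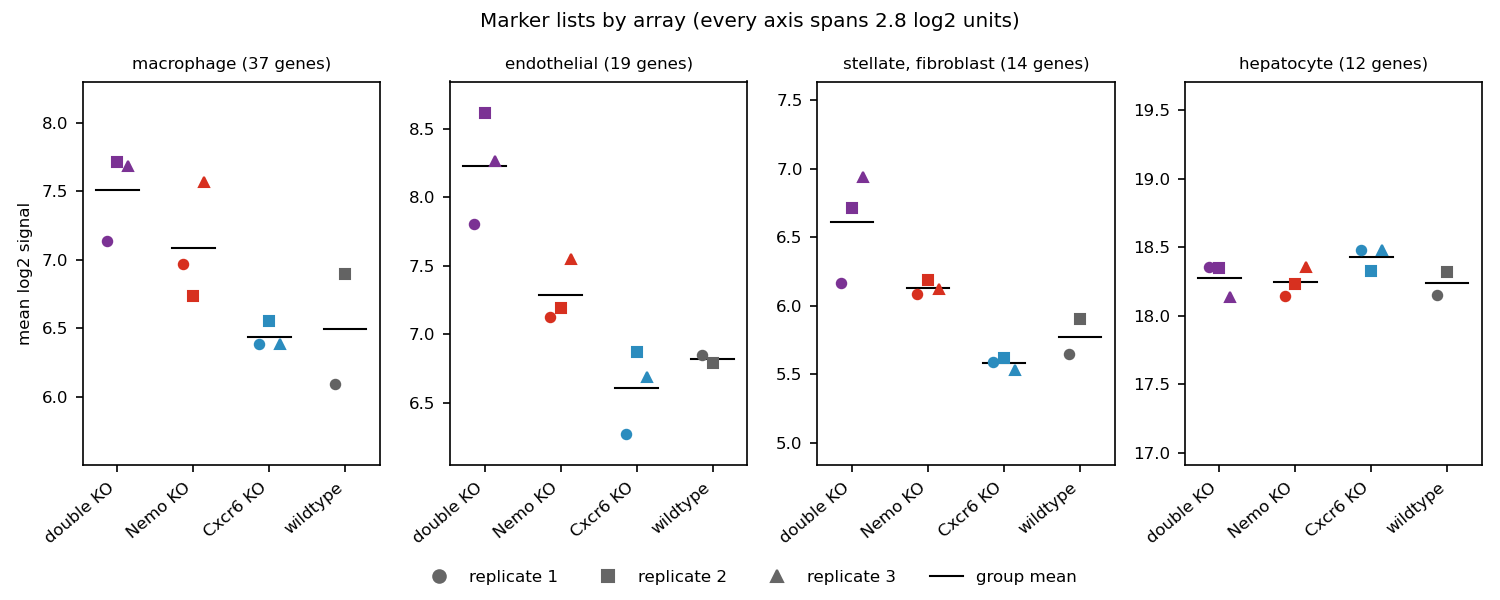
Points are the mean log2 signal per array of the 37 macrophage genes and of endothelial, stellate and hepatocyte markers, with the groups from left to right as double KO, Nemo KO, Cxcr6 KO and wildtype and every axis spanning 2.8 log2 units. The group means of macrophage, endothelial and stellate markers are highest in double KO. The hepatocyte markers differ little, and they lie close to the top of the scale.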

How the data were processed

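RNA of isolated hepatocytes was hybridised to 11 Affymetrix arrays, 300 ng of total RNA per sample per the labels' protocols. The authors deposited log2 signals, 1 per transcript cluster and array. Per the submitters' processing notes they used Affymetrix Expression Console, RMA (background correction, quantile normalization and probe summary) and Transcriptome Analysis Console. The sources used here do not give the genome build of the rows. Arrays carry no read depth, and their number limits the precision.

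Of 65956 rows, 30604 carried 1 gene symbol, 2146 several and 33206 none. Only rows with 1 symbol were named, and the row with the highest mean stood for each of the 30142 genes (355 had more than 1 row). Symbols were updated through the RefSeq table of GRCm38.p6, with 22818 rows matched. Testing required a group mean at or above the median of row means in at least 1 group, which left 18337 genes.

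One limma 3.58.1 model in R 4.3.3 held a mean for each of the 4 groups (lmFit and eBayes, 7 residual degrees of freedom, prior 2.13). It compared double KO with Cxcr6 KO, Nemo KO with wildtype, double KO with Nemo KO and Cxcr6 KO with wildtype. The interaction subtracts the Nemo effect in Cxcr6-intact mice, Nemo KO minus wildtype, from that in Cxcr6-deficient mice, double KO minus Cxcr6 KO. Tests were two-sided, adjusted by Benjamini-Hochberg over all genes tested and called at 5%. Each log2 fold change carries its standard error from the model, and ± after a group mean is the SD. Replicates are labelled biological, and no label states that every one came from its own mouse, so p-values measure the spread between these samples. The alternatives were other normalizations, filters, fits and the omission of each array.

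The members and the gene lists were chosen with earlier results of these data known, and their counts are descriptions. All 37 members could be named. Values per array were given for members that passed a test or whose groups did not overlap, and for defining resident and recruited genes. Of further lists, called genes with the smallest p were named.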

Additional observations from a re-analysis of the deposited data

How the results depend on the processing

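The number of members called between double KO and Cxcr6 KO was 10 with all arrays and genes, where 1358 of 18337 genes were called. It was 6 with no filter on low values, where 929 of 30142 genes were called. It was 21 when the other 2 groups were taken out of the model, where 2789 of 17816 genes were called. With both wildtype arrays kept and another array left out, the count ranged from 0 to 14. The 0 came without Cxcr6 KO replicate 3 (smallest adjusted p 0.0580 by limma, 116 of 18432 genes called). The 14 came without Nemo KO replicate 3 (1457 of 18278 genes called). Centring, quantile normalization, a stricter filter, eBayes with trend and robust settings and the mean of all rows of a gene gave 10 to 13. Over all genes these called from 1119 of 18280 (centring) to 1585 of 12920 (stricter filter). For Nemo KO against wildtype the count of 0 became 1 with arrays centred on their medians and ranged from 0 to 5 when single arrays were left out. Over all genes, centring called 1319 of 18280, against 29 of 18337 as deposited. With both wildtype arrays kept and another left out, the members' count was 1 without double KO replicate 3 and 0 otherwise. Without double KO replicate 3, 14 of 18340 genes were called, and without Nemo KO replicate 3, 1033 of 18278. The 5 came without wildtype replicate 2, which leaves 1 wildtype array, so nothing on the members is concluded from it. With both wildtype arrays kept, 0 members were called in every alternative for the interaction, Cxcr6 KO against wildtype and double KO against Nemo KO. Over all genes at most 7, 48 and 201 were called in these 3 comparisons. With a wildtype array left out, the lone one is assumed to vary like the other groups. Among the 10 called genes, Mrc1 and Msr1 passed in 17 of 19 alternatives, Lyz2 in 16, Ly6c2 in 15 and Tyrobp in 11 of 18. Over 3223 alternative values of single genes, 52 newly passed, 51 no longer did and 0 called values changed sign. The cause of these changes was not tested.

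Of 15 pairs of samples with the same replicate number, 6 correlated above 0.1 and 6 below 0 (r from -0.272 to 0.275). Pairs with different numbers were not computed, so whether the numbers pair the samples is not known. With the replicate number as a block, 13 members were called between double KO and Cxcr6 KO, against 10. Over all 18337 genes it was 1507, against 1358. Over all genes, the block left 0 called between Nemo KO and wildtype, against 29. After centring, the median over all genes was -0.12 for Nemo KO against wildtype, against -0.04 as deposited, and 0.17 for the interaction, against 0.03.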
